A study of Rattus norvegicus with 59 samples.

Results

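Plaur and Adam8 encode a receptor and a protease that act on proteins at the cell surface, and both were taken by gene name from a table of lung gene expression, as 2 of its 2887 complete entries. The lungs came from male Fischer F344 rats that had inhaled crystalline silica, the mineral dust of silicosis, or air in a whole-body chamber. Silica rats breathed 15 mg/m3 for 6 h a day on 5 days, air rats had 0 mg/m3, and both arms were 3 months old when bought. Lungs were taken at 6 times after exposure, at month 1, then 3, 6, 9, 12 and finally 18, from 5 rats in each silica group and 5 in each air group, except that the 9-month air group held 4. Each of the 59 libraries was made from total RNA of a piece of lung of 1 rat, so airways, alveoli, vessels and blood are mixed in it, and the rats are of a single strain and sex. The comparisons ask how far each gene differed between the arms at a given time and whether that difference varied up to 18 months. They also ask how the level in air lungs moved with age, which cannot be told apart from the time of collection.

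Plaur encodes the urokinase receptor (uPAR), a protein of the LU domain family. It is anchored by a lipid to the outer face of the cell membrane and has no part inside the cell. It binds urokinase, which turns plasminogen into the fibrin- and matrix-degrading protease plasmin, and it passes signals on through neighbouring integrins, among them the alpha M beta 2 integrin of myeloid cells. Monocytes, macrophages and neutrophils carry it, and it is known to be induced when they are activated. Adam8 encodes a transmembrane metalloproteinase of the ADAM family (CD156a), known from macrophages and granulocytes and also made by other cell types, which cuts the outer part of surface proteins such as adhesion molecules and receptors. Its own catalytic domain is freed by removing a prodomain.

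The sequence just before each gene's start is given as background. Both stretches are the 250 bases upstream of the RefSeq start in the rat build GRCr8, written along the strand of the gene. Plaur's lies at chr1:89181113-89181362 on the plus strand and Adam8's at chr1:204218323-204218572 on the minus strand. Capitals mark matches to the motifs searched.
Plaur: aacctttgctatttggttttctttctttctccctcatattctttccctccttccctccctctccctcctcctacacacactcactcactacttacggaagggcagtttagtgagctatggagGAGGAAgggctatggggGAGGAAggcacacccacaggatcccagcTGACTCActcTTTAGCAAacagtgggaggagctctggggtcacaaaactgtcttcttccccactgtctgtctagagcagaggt
Adam8: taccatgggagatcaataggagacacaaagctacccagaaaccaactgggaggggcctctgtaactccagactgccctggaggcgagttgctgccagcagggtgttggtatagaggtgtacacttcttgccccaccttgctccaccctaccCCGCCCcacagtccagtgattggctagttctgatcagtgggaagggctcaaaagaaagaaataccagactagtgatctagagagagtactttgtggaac
The motifs were searched on both strands, and the letters matched do not overlap between motifs. Plaur's stretch holds 1 match to the AP-1 motif TGANTCA, which 6.34% of 33469 rat promoter stretches of the same length hold, and its first base lies 83 bases before the start. It also holds 2 matches to the PU.1 core GAGGAA (23.3% of stretches hold it), 128 and 111 bases before the start, and 1 to the C/EBP motif TTGCNNAA (9.22%), 73 bases before it and read on the other strand. Adam8's stretch holds none of these and 1 match to the GC box GGGCGG (30.5%), read on the other strand 99 bases before the start, which Plaur's lacks. The NF-kB motif (3.54%) was matched in neither. These are matches of letters in a fixed window. No factor binding was measured, and a link of the motifs to the silica response was not tested.

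Values are FPKM, fragment numbers divided by the length of the transcript and scaled to the mapped reads of each library. Plaur and Adam8 were among the 1278 entries tested, those with 1 FPKM or more in 4 or more libraries. Of 2061 entries matched by name to the rat annotation 2046 lay on chromosome 1, so genes elsewhere were not analysed here. Depth relative to the typical library, taken from the steps between low values, lay between 0.432 and 2.26. Lung markers were present in every library, with Napsa of alveolar type 2 cells at 76.5 to 191 FPKM in silica lungs and 71.5 to 95.0 FPKM in air lungs. Silica replicate 3 of 12 months stood apart from its group. Of 482 genes called higher in the mean silica difference of the other 5 times, 42 (8.71%) lay above every 12-month air library in it, against 52.9% to 78.2% in the other 4 silica libraries of that time, and results that rest on it are given with and without it.

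Plaur was higher in silica lungs than in air lungs at 3, 6, 9, 12 and 18 months. Over all times its level had a median of 6.05 FPKM in 30 silica lungs (2.69 to 9.04) and 2.67 FPKM in 29 air lungs (1.99 to 4.94). In bulk lung RNA, more cells of a type and more RNA per cell cannot be told apart, so these are levels of the tissue.

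At 1 month the silica rats had 3.86, 3.67, 3.37, 4.29 and 4.70 FPKM of Plaur, against 2.86, 2.67, 2.49, 2.85 and 3.40 FPKM in the air rats. At 3 months the silica rats had 5.45, 4.82, 6.03, 4.55 and 4.22 FPKM, against 2.83, 2.46, 1.99, 2.55 and 2.77 FPKM in the air rats. At 1 month 4 of 5 silica rats lay above the highest air rat and the fifth, at 3.37 FPKM, just under it, while at 3 months the groups did not overlap. At 6 months Plaur stood at 7.29, 6.49, 7.25, 6.07 and 7.27 FPKM in silica rats and at 2.33, 2.49, 2.16, 2.46 and 2.90 FPKM in air rats. At 9 months it stood at 5.94, 6.09, 7.06, 6.47 and 7.87 FPKM in silica rats and at 2.34, 2.66, 2.86 and 3.74 FPKM in the 4 air rats. At these 2 times every silica rat lay well above every air rat, with no silica value under 5.94 FPKM. At 12 months the silica rats had 9.04, 5.63, 2.69, 8.67 and 8.06 FPKM, against 3.43, 2.36, 3.24, 2.42 and 3.35 FPKM in the air rats. At 18 months the silica rats had 6.81, 6.57, 5.83, 8.58 and 4.94 FPKM, against 2.48, 2.88, 4.94, 3.24 and 2.64 FPKM in the air rats. The 12-month groups overlapped through replicate 3 alone, whose 2.69 FPKM was within the air range, and at 18 months the lowest silica rat and the highest air rat differed only beyond the digits printed, with the silica rat higher.

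**Figure D1:**
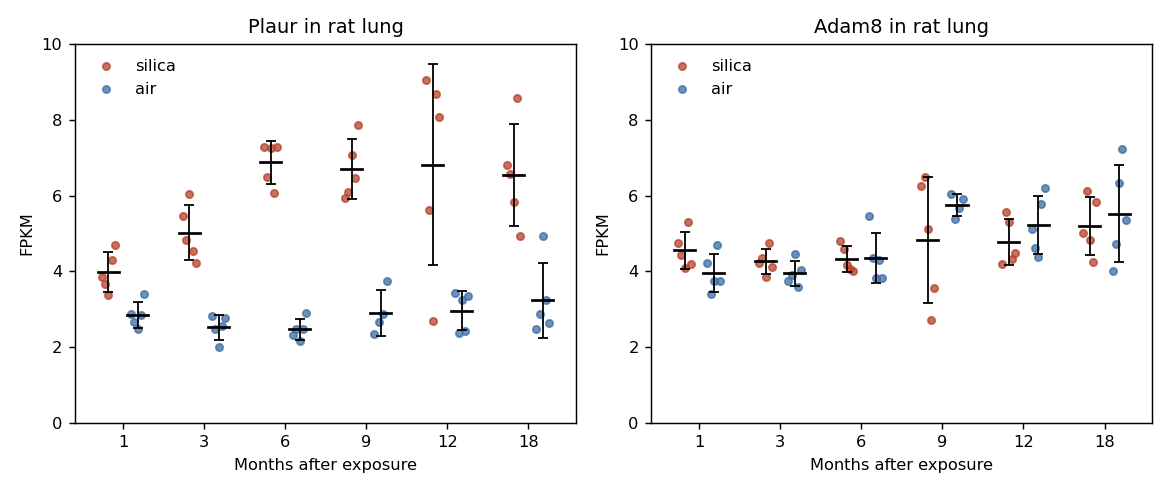
FPKM of Plaur (left) and Adam8 (right) against months after exposure, with 1 point per rat, silica in red to the left and air in blue to the right of each time. Horizontal bars are group means and error bars are SD (n = 5 rats, 4 in air at 9 months); Plaur separates the arms at 3, 6, 9 and 18 months, and Adam8 overlaps at all 6 times.

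The group means of Plaur in silica lungs were 3.98 ± 0.525, 5.01 ± 0.725, 6.87 ± 0.560, 6.69 ± 0.792, 6.82 ± 2.66 and 6.55 ± 1.35 FPKM from 1 to 18 months (SD, n = 5 each). In air lungs they were 2.85 ± 0.342, 2.52 ± 0.331, 2.47 ± 0.272, 2.90 ± 0.600, 2.96 ± 0.522 and 3.24 ± 0.994 FPKM (SD, n = 5, and 4 at 9 months). All 6 silica means were above all 6 air means. In the order of the 12 means, 2 steps were wider than the larger SD of the 2 groups, the 1.53 FPKM between silica at 18 and at 3 months and the 1.04 FPKM between silica at 3 and at 1 month. Neighbours among the 4 silica groups from 6 to 18 months did not differ beyond their spread, nor did the air groups from their neighbours in that order.

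On the log2(FPKM + 0.5) scale the silica minus air difference of Plaur was 0.42 ± 0.17 (SE) at 1 month and missed the threshold in limma (adjusted p = 0.121, 95% interval 0.075 to 0.756, n = 5 each), where 8.84% of all tested genes were called in either direction. An exact two-sided permutation test of the same rats gave p = 0.0159. The difference was 0.87 ± 0.17 at 3 months (limma adjusted p = 0.000163), a fold of 1.82, where 18.2% of tested genes were called. After the totals were rescaled without Hbb, the entry with the highest mean, it was 0.51 and missed the threshold (0.0656). It was 1.31 ± 0.17 at 6 months (6.16e-08), a fold of 2.49, where 27.6% were called. At 9 months it was 1.09 ± 0.18 (6.86e-06), a fold of 2.13, with 30.8% of genes called. By the exact test p was 0.00794 at 3, 6, 9 and 18 months, the smallest that groups of this size can give, and 0.0317 at 12 months; adjusted over the 6 times the exact p ranged from 0.0119 to 0.0317. Groups that did not overlap, as those of Plaur at 3, 6, 9 and 18 months, were found for 12.7%, 25.2%, 24.6% and 11.1% of tested genes at those times, and for 8.84% and 3.36% at 1 and 12 months.

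At 12 months the Plaur difference was 0.99 ± 0.17 on the log2 scale (limma adjusted p = 3.02e-05), a fold of 1.99, where 23.6% of tested genes were called. Without silica replicate 3 it was 1.26 ± 0.14 (adjusted p = 3.51e-10), a fold of 2.40, with 35.8% called, and when the 12-month groups were fitted alone, with that library, it was 0.99 with an adjusted p of 0.110. At 18 months it was 0.93 ± 0.17 (9.98e-05), a fold of 1.91, with 15.3% of genes called. The mean of the 6 differences was 0.93 ± 0.070 (limma adjusted p = 2.32e-16), a fold of 1.91 with a 95% interval of 1.73 to 2.11, and 0.98 ± 0.055 without silica replicate 3 of 12 months (2.02e-21). In this mean 57.6% of tested genes were called, 37.5% higher and 20.1% lower, and 59.5% without that library. A fold on this scale understates the change of genes as low as these.

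**Figure D2:**
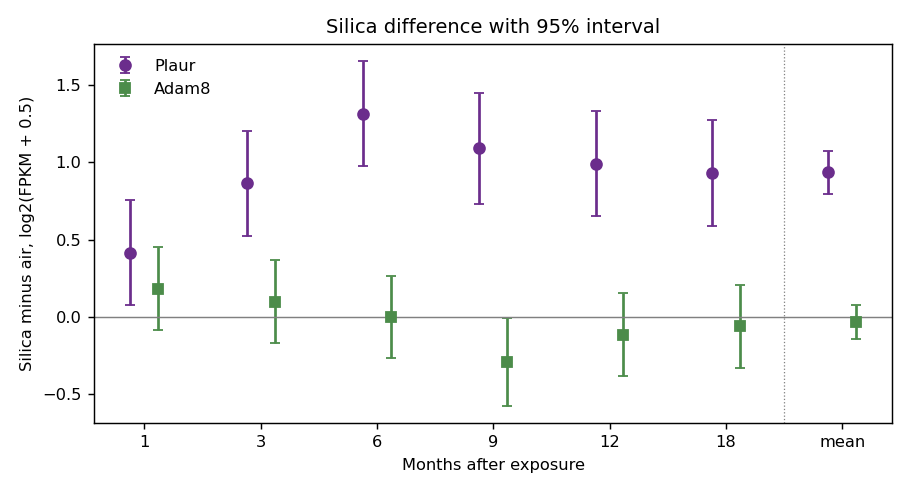
Silica minus air difference in log2(FPKM + 0.5) for Plaur (circles) and Adam8 (squares) at each month after exposure and for the mean of the 6 times, with bars giving the 95% interval from limma. Plaur lies above 0 throughout, from 0.42 at 1 month to 1.31 at 6 months, and Adam8 stays within 0.29 of 0.

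The Plaur difference was larger at every later time than at 1 month, but whether this passed the threshold turned on silica replicate 3 of 12 months and, at 6 months, also on scaling. An F test in limma of whether it varied over the 6 times gave an adjusted p of 0.210, with 1.33% of tested genes called. Without silica replicate 3 of 12 months the adjusted p was 0.00900, with 6.10% called. The difference at 6 months exceeded that at 1 month by 0.90 ± 0.24 in log2 units (adjusted p = 0.0729, where 0.235% of genes were called), and without that library the excess was 0.90 ± 0.19 (adjusted p = 0.00407, 3.13% called). With all libraries it passed after median centring (0.93, adjusted p = 0.0309) and quantile normalization (0.91, 0.0338). The excess was 0.67 at 9 months (adjusted p = 0.0924, 0.0212 without the library), where 3.99% of genes were called with the library and 8.92% without it. At 12 months it was 0.58 (0.240) with the library and 0.85 (0.00420) without it, where 0.313% and 8.76% of genes were called. The excess was 0.45 at 3 months (0.533) and 0.51 at 18 months (0.471), with 0.156% of genes called at each, and it missed the threshold there without the library too (0.293 and 0.215). These 5 comparisons share the 1-month groups.

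In air lungs Plaur did not change detectably with age. The 18-month minus 1-month difference was 0.13 ± 0.17 on the log2 scale (limma adjusted p = 0.652, 95% interval -0.214 to 0.467, n = 5 each), where 21.8% of tested genes were called, and the F test over the 6 air groups gave an adjusted p of 0.594, with 28.9% called. Without air replicate 3 of 18 months, the rat at 4.94 FPKM, the difference was -0.018.

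Adam8 was not detectably different between silica and air lungs at any time. Its level had a median of 4.46 FPKM in 30 silica lungs (2.72 to 6.49) and 4.47 FPKM in 29 air lungs (3.39 to 7.23). Since FPKM are per length, the level in air lungs can be set beside that of Plaur, whose median there was 2.67 FPKM. Reads of a lncRNA gene that overlaps Adam8 may be part of the Adam8 level.

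At 1 month the silica rats had 4.75, 4.44, 4.08, 5.30 and 4.20 FPKM of Adam8, against 4.22, 3.39, 3.75, 4.69 and 3.73 FPKM in the air rats. At 3 months the silica rats had 4.23, 4.35, 3.86, 4.75 and 4.10 FPKM, against 3.76, 3.89, 4.47, 3.59 and 4.04 FPKM in the air rats. At these early times the silica values lay slightly to the high side, with 2 and 1 of 5 silica rats above the highest air rat. At 6 months Adam8 stood at 4.81, 4.58, 4.17, 4.06 and 4.01 FPKM in silica rats and at 5.46, 4.34, 3.83, 4.29 and 3.82 FPKM in air rats. At 9 months it stood at 6.25, 6.49, 5.12, 2.72 and 3.55 FPKM in silica rats and at 6.04, 5.37, 5.66 and 5.91 FPKM in the 4 air rats. The 9-month silica rats were the most widely spread of the 12 groups, with 2 above all air rats and 3 below them. At 12 months the silica rats had 4.20, 5.56, 5.29, 4.32 and 4.48 FPKM, against 5.11, 4.63, 4.39, 5.78 and 6.20 FPKM in the air rats. At 18 months the silica rats had 5.01, 6.13, 4.83, 4.24 and 5.83 FPKM, against 4.00, 4.71, 6.32, 7.23 and 5.36 FPKM in the air rats. No silica rat exceeded the highest air rat at either time, and the groups overlapped. Silica replicate 3 of 12 months, which was at air level for Plaur, had 5.29 FPKM of Adam8, inside the range of both arms.

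The group means of Adam8 in silica lungs were 4.55 ± 0.487, 4.26 ± 0.331, 4.32 ± 0.352, 4.83 ± 1.65, 4.77 ± 0.613 and 5.21 ± 0.766 FPKM from 1 to 18 months (SD, n = 5 each). In air lungs they were 3.96 ± 0.504, 3.95 ± 0.335, 4.35 ± 0.668, 5.75 ± 0.295, 5.22 ± 0.761 and 5.52 ± 1.28 FPKM (SD, n = 5, and 4 at 9 months). Air at 9, 18 and 12 months led the order of the 12 means and air at 1 and 3 months closed it, and no step between neighbours in that order was wider than the larger SD.

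The silica minus air difference of Adam8 was 0.18 ± 0.13 (SE, log2 scale) at 1 month (limma adjusted p = 0.456, n = 5 each), 0.098 at 3 months (0.658) and -0.00059 at 6 months (1.00). At 9 months it was -0.29 ± 0.14 (adjusted p = 0.116, 95% interval -0.574 to -0.0061, n = 5 and 4). That value rested on the 2 low silica rats. Without silica replicate 1 or 2, the 2 highest of that group, it passed the threshold at -0.39 and -0.40 (limma adjusted p = 0.0319 and 0.0252), and leaving out other libraries it came as near to 0 as -0.12. At 12 months the difference was -0.12 (0.581) and at 18 months -0.062 (0.799). Exact two-sided permutation tests gave p = 0.0952 to 0.992 over the 6 times. The mean of the 6 differences was -0.031 ± 0.055 (limma adjusted p = 0.657), with a 95% interval of the fold of 0.907 to 1.06. The F test of a change over time gave an adjusted p of 0.527.

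In air lungs Adam8 was higher at 18 months than at 1 month, by 0.42 ± 0.13 (SE, log2 scale; limma adjusted p = 0.0195, n = 5 each), a fold of 1.33, where 21.8% of tested genes were called. The F test over the 6 air groups was called as well (adjusted p = 0.00631), as it was for 28.9% of genes. Each air time was its own group of rats, so age and any batch of collection or processing cannot be told apart. The 1-month to 18-month call rested on single rats and on scaling: it was lost without air replicate 2 of 1 month (0.0640) or air replicate 3 or 4 of 18 months (0.0641 and 0.0927), and after median centring (0.33, adjusted p = 0.0592) or quantile normalization (0.33, 0.0684). The F test was called in each fit that left out 1 library (adjusted p = 0.00113 to 0.0153), and missed the threshold without month 1 (0.0531) and after the totals were rescaled without Hbb, the entry with the highest mean (0.416). It stayed called when they were rescaled without LOC102553223, the entry with the highest single value.

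The scaling of a library enters Adam8 and Plaur alike, so their ratio depends on it only through the 0.5 FPKM added to each. The log2 of that ratio averaged 0.18, -0.21, -0.61, -0.49, -0.38 and -0.29 in silica lungs from 1 to 18 months, against 0.41, 0.56, 0.70, 0.89, 0.73 and 0.70 in air lungs. The silica minus air difference of the ratio was -0.23, -0.77, -1.31, -1.38, -1.11 and -0.99, and at 6 months it lay between -1.18 and -1.44 with 1 or 0.1 FPKM added instead. Without silica replicate 3 of 12 months the 12-month difference was -1.42. Adam8 exceeded Plaur in the mean of every air group and of the 1-month silica group, and Plaur exceeded Adam8 in the mean of the other 5 silica groups. Silica and air values of the ratio did not overlap at 3, 6, 9 and 18 months. This is a description of the pair, and no test is given for it. Reads of the lncRNA gene that overlaps Adam8 may enter the ratio.

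Genes of proteolysis at the cell surface and in lysosomes, with surface partners, ligands and the LU domain family, were described from 10 gene lists. The lists name 221 genes, of which 53 stood in the table, and the counts over them are not of surface proteases alone. Apart from Plaur and Adam8, 29 of them were tested, and in the mean over times 17 rose and 8 fell, with a median difference of 0.27 on the log2 scale. Among all 1278 tested genes 479 rose (37.5%) and 257 fell (20.1%), with a median of 0.032. The counts of the lists were the same without silica replicate 3 of 12 months. Differences and SE that follow are on the log2(FPKM + 0.5) scale for the mean of the 6 silica minus air differences, from limma, with p adjusted over all tested genes.

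Of the urokinase and plasminogen system, 4 of 30 listed genes stood in the table and 3 were tested. Besides Plaur, Hpn, which encodes the surface serine protease hepsin, rose by 0.43 ± 0.056 (adjusted p = 5.01e-09), with means of 2.49 FPKM in silica lungs and 1.73 FPKM in air lungs. Plg, the plasminogen gene, had 1.23 FPKM in silica lungs and 1.31 FPKM in air lungs and a difference of 0.020 (adjusted p = 0.933). The kallikrein gene Klk1 did not pass the filter on low values and was at 0 in 30 of 59 libraries. Urokinase itself and the plasminogen activator inhibitors were not analysed here.

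Of the surface partners of the urokinase receptor and of Adam8, 8 of 18 stood in the table and 5 were tested, of which 4 rose and 1 fell. Itgam, the alpha M chain of the integrin that pairs with the urokinase receptor, had a median of 7.96 FPKM in silica lungs (2.95 to 16.5) and 3.53 FPKM in air lungs (2.36 to 6.68), and rose by 0.93 ± 0.084 (adjusted p = 1.39e-13). Itgax, the alpha X chain of macrophages and dendritic cells, rose by 0.73, Igf2r, a receptor for mannose-6-phosphate tagged proteins that can bind the urokinase receptor, by 0.31, and Itgal, the alpha L chain of leukocytes, by 0.27. Itgad, the alpha D chain, fell by 0.22 (adjusted p = 0.00227). Of the LU domain family that Plaur belongs to, 7 of 16 genes stood in the table and 2 passed the filter. Besides Plaur this was Cd177, a surface glycoprotein of neutrophils, with medians of 39.1 FPKM in silica lungs (12.7 to 50.4) and 9.09 FPKM in air lungs (3.57 to 16.5), and a difference of 1.996 (adjusted p = 2.43e-24). The other family members, Lypd3, Lypd4, Lypd5, Tex101 and Pinlyp, reached at most 0.914 FPKM in any library.

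**Figure D3:**
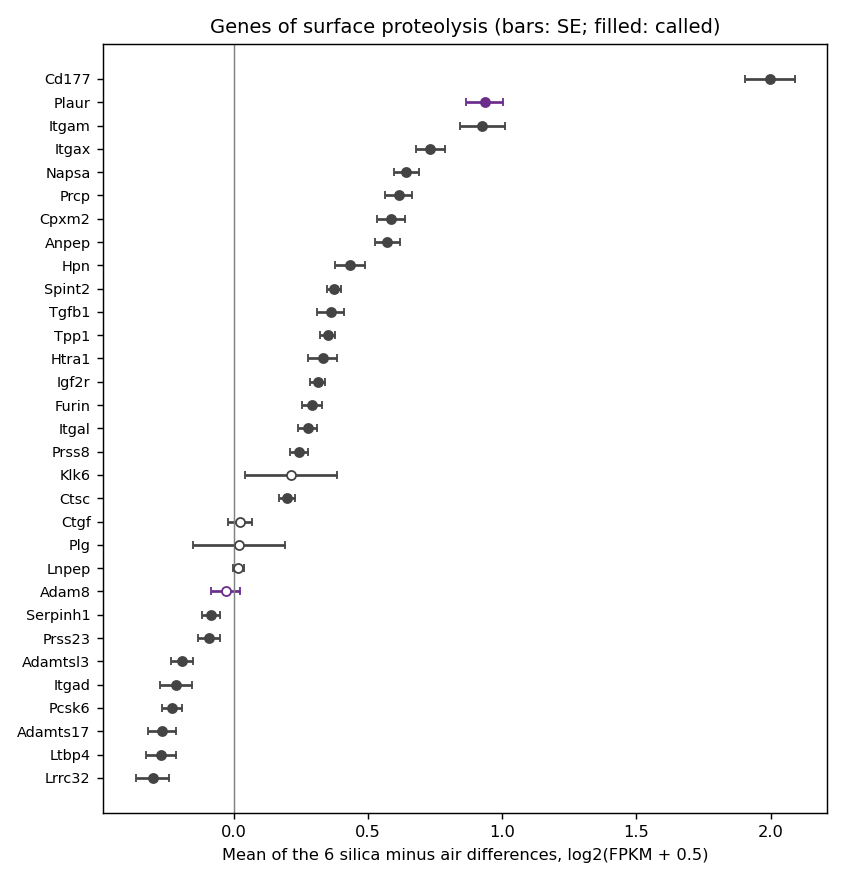
Mean of the 6 silica minus air differences in log2(FPKM + 0.5) for the 31 tested genes of the gene lists, with Plaur and Adam8 in purple. Bars are SE from limma, filled points passed an adjusted p of 0.05 and open points did not; Cd177 at 1.996 and Plaur at 0.93 are the highest, and Adam8 at -0.031 lies among the genes near 0.

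Of the ADAM and ADAMTS genes, 4 of 31 stood in the table and 3 were tested. Adamts17, a secreted metalloproteinase of the family, fell by 0.27 ± 0.052 (adjusted p = 1.81e-05), with 1.11 FPKM in silica lungs and 1.41 FPKM in air lungs. Adamtsl3, an ADAMTS-like matrix protein without a protease domain, fell by 0.19 ± 0.042 (adjusted p = 0.000103). Adam12 did not pass the filter, with 0.576 FPKM in silica lungs and 0.667 FPKM in air lungs. Of 20 matrix metalloproteinases and their inhibitors, Mmp21 alone stood in the table, at 0 in 49 of 59 libraries, and was not tested.

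Of the serine proteases and convertases, 19 of 38 stood in the table and 8 were tested, of which 5 rose and 2 fell. Prcp, a lysosomal carboxypeptidase, rose by 0.61 ± 0.051, Hpn by 0.43, Furin, the convertase that removes prodomains from precursor proteins, by 0.29 ± 0.037, and Prss8, which encodes the epithelial protease prostasin, by 0.24 ± 0.034. Htra1, a secreted serine protease, rose by 0.33, and Pcsk6, another proprotein convertase, fell by 0.23. All 3 tested lysosomal peptidases rose: Napsa, the aspartic protease of alveolar type 2 cells, by 0.64, Tpp1, tripeptidyl peptidase, by 0.35, and Ctsc, which activates serine proteases of myeloid granules, by 0.20. Of 3 tested metallopeptidases outside the ADAM and matrix families, Anpep, the aminopeptidase N gene, rose by 0.57 and Cpxm2 by 0.58, and Lnpep had a difference of 0.016 (adjusted p = 0.50). Of 2 tested inhibitors, Spint2, an inhibitor of surface serine proteases, rose by 0.37 ± 0.028, and Serpinh1, a collagen chaperone of the serpin family, fell by 0.085.

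Among ligands and substrates, 4 of 19 listed genes stood in the table and all 4 were tested. Tgfb1, the transforming growth factor whose latent form plasmin can release, rose by 0.36 ± 0.050 (adjusted p = 2.28e-08). Ltbp4, which binds latent forms of that factor to the matrix, fell by 0.27, and Lrrc32, which holds its latent form at the cell surface, fell by 0.30. Ctgf, a matrix-associated growth factor, had 20.2 FPKM in silica lungs and 19.6 FPKM in air lungs and a difference of 0.023 (adjusted p = 0.686).

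The tested marker genes of neutrophils, macrophages and monocytes were higher in silica lungs. Markers of other cell types moved in both directions. Among all tested genes 37.5% were called higher and 20.1% lower in the mean over times. Of 18 neutrophil markers 4 stood in the table, and their summed level was 14.3 to 56.6 FPKM in silica lungs and 5.80 to 19.0 FPKM in air lungs. Cd177 and Ceacam10, the 2 that were tested, rose, and Fpr1 and Fpr2 did not pass the filter and were at 0 in 2 and 3 libraries. Fpr1 had means of 0.250 FPKM in silica lungs and 0.184 FPKM in air lungs, and Fpr2 0.161 FPKM and 0.181 FPKM. Of 24 macrophage and monocyte markers 6 stood in the table, all 6 rose, and their sum had a median of 224 FPKM in silica lungs (126 to 920) and 154 FPKM in air lungs (125 to 234), with none at 0. Of the 920 FPKM, 840 were of Apoe in a single silica library. Of 8 markers of all leukocytes 3 stood in the table and rose, with sums of 101 to 212 FPKM in silica lungs and 96.6 to 157 FPKM in air lungs. All 3 tested alveolar type 2 markers rose, with sums of 138 to 318 FPKM in silica lungs and 130 to 166 FPKM in air lungs, as did both of mast cells, basophils and eosinophils, with 13.3 to 39.7 FPKM in silica lungs and 9.01 to 15.6 FPKM in air lungs. All 3 tested endothelial markers fell, with sums of 56.6 to 89.3 FPKM in silica lungs and 78.5 to 94.5 FPKM in air lungs. Of 3 tested markers each, 2 fell among fibroblast and smooth muscle genes, 2 among erythrocyte genes, 1 among T and NK cell genes (Nkg7, by 0.38) and 0 among B cell genes. The defining genes of neutrophils and macrophages on other chromosomes were not analysed here, and the part of cell makeup in the Plaur difference was not tested.

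**Figure D4:**
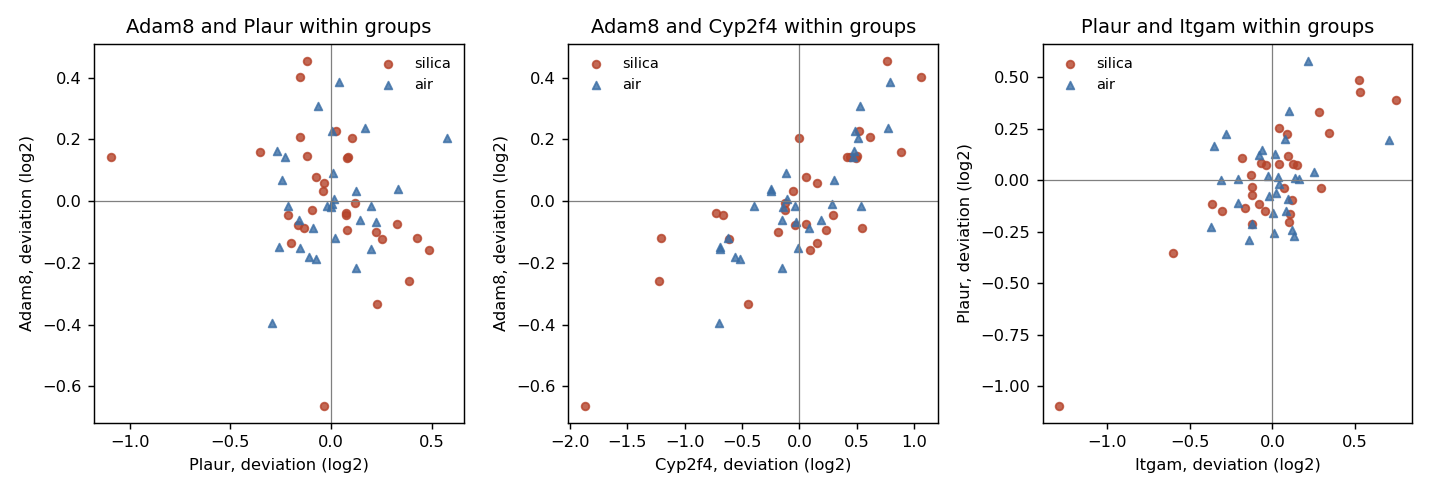
Deviation of each rat from its own group mean of log2(FPKM + 0.5), Adam8 against Plaur (left), Adam8 against Cyp2f4 (middle) and Plaur against Itgam (right), with silica rats as red circles and air rats as blue triangles. Adam8 follows Cyp2f4 in both arms (r = 0.80 in silica and 0.82 in air rats), and Plaur follows Itgam in silica rats (r = 0.88), with r = 0.23 in air rats.

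Within groups, silica rats with more Plaur tended to have less Adam8, while the relation missed the threshold in air rats and the difference between the arms was not tested. Deviations from the own group mean of log2(FPKM + 0.5) correlated at Pearson r = -0.35 in 30 silica rats (permutation within groups, p = 0.0183, adjusted p = 0.0244 over the 12 relations computed) and at Spearman rho = -0.46 (p = 0.0203, adjusted 0.0271). Without the 2 rats farthest from the median of Plaur r was -0.36. In 29 air rats r was 0.23 (permutation p = 0.409, adjusted 0.447) and rho 0.17 (p = 0.446, adjusted 0.446), and r was 0.12 without the 2 farthest rats. In silica rats the relation missed the threshold without the 12-month group (r = -0.32, permutation p = 0.127) or the 18-month group (r = -0.31, permutation p = 0.0540). These 2 p-values are not adjusted. The adjustment had been planned over this pair alone, in silica and in air rats. Relations added later, most with smaller p, entered it and lowered the adjusted p in silica rats.

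Another 5 pairs were looked at after the values had been seen, and are given as descriptions. Plaur followed Itgam in silica rats (r = 0.88, rho = 0.62, n = 30, and r = 0.74 without the 2 farthest rats), while r was 0.23 in 29 air rats and 0.060 there without the 2 farthest. It followed Cd177 at r = 0.82 in silica rats, 0.49 without the 2 farthest rats, and at r = 0.58 in air rats, and without the 12-month silica group r in silica rats was 0.27. Adam8 ran against Itgam in silica rats (r = -0.60, rho = -0.80). In air rats r was 0.17, and leaving out a group moved it to -0.091 (without 18 months) or 0.54 (without 12 months). Adam8 followed Cyp2f4, an airway cytochrome P450 gene of club cells, at r = 0.80 in silica rats and 0.82 in air rats, and Dnah3, a motor protein of motile cilia, at r = 0.83 and 0.78. These r stayed between 0.68 and 0.77 without the 2 farthest rats. The points of an arm share library scaling and depth.

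The 2 low Adam8 values of the 9-month silica group fell on rats whose Cyp2f4 was below their group mean. Replicate 4, at 2.72 FPKM of Adam8, deviated by -0.66 on the log2 scale for Adam8, by -1.87 for Cyp2f4 and by -0.57 for Dnah3. Replicate 5, at 3.55 FPKM, deviated by -0.33 for Adam8, by -0.45 for Cyp2f4 and by -0.25 for Dnah3. Replicates 1 and 2, the 2 highest in Adam8, deviated by 0.40 and 0.45 for Adam8 and by 1.06 and 0.76 for Cyp2f4. These rats also differed in Itgam, by 0.295 and 0.34 in replicates 4 and 5 and by -0.31 and -0.36 in replicates 1 and 2. Relative depth was 0.471 in replicate 4 and 1.71 in replicate 5. Of 13 airway markers 2 stood in the table, Cxcl17, a mucosal chemokine gene, and Cyp2f4. Their summed level was 51.7 to 85.2 FPKM in silica lungs and 36.6 to 59.01 FPKM in air lungs, with neither at 0. Most of this sum was Cxcl17, with medians of 59.8 FPKM in silica lungs and 38.4 FPKM in air lungs. Cxcl17 rose by 0.65 ± 0.043 (limma adjusted p = 3.39e-18). Cyp2f4 itself ranged from 2.09 to 19.3 FPKM in silica lungs and from 5.22 to 22.1 FPKM in air lungs, with a mean difference of -0.20 ± 0.16 (limma adjusted p = 0.297). With Cyp2f4 as a covariate, chosen after these values were seen, the mean silica difference of Adam8 was 0.023 (limma adjusted p = 0.581), that at 9 months -0.083 (0.543), and the 18-month minus 1-month difference in air 0.27 (adjusted p = 0.0128). The parts of airway content, of other cell content and of depth in these values were not tested.

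**Figure D5:**
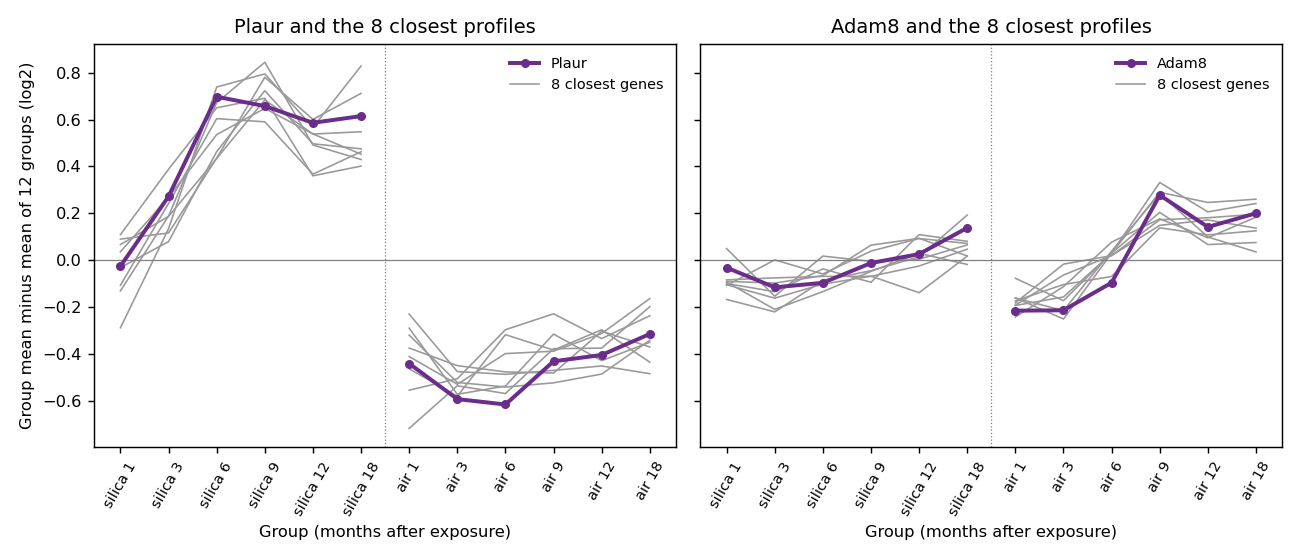
Group means of log2(FPKM + 0.5), each gene centred on the mean of its 12 groups, for Plaur (left) and Adam8 (right) in purple with the 8 genes of closest profile in grey; silica groups stand left of air groups, each from 1 to 18 months. Plaur and its neighbours lie higher at 6 to 18 months than at 1 month in silica lungs and below 0 in air lungs, and Adam8 and its neighbours lie above 0 in air lungs of 9 to 18 months.

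The genes whose 12 group means ran closest to those of Plaur were Rnaset2, a lysosomal ribonuclease (root-mean-square difference 0.109 on the log2 scale), Dgat2, an enzyme of triglyceride synthesis (0.113), Tmem86a, Pld3, Ftl1, the ferritin light chain, Cd33, a myeloid receptor, Itgam and Apobr, a lipoprotein receptor of macrophages (0.149). A flat profile lay 0.508 from that of Plaur, and Adam8 lay 0.525 from it. Rnaset2 had 21.9 FPKM in silica lungs and 11.5 FPKM in air lungs, and Cd33 had 5.91 FPKM in silica lungs and 2.97 FPKM in air lungs. Closest to Adam8 were Asb7 (0.0751), Dnah3 (0.0786), Tacc2, Zfp628, Gltscr1, Eef2k, a kinase of translation elongation, Fam53b and the T-box gene T (0.0905), against 0.153 for a flat profile. With a pseudocount of 1 FPKM, 7 of the 8 genes of Plaur and 6 of the 8 of Adam8 were the same, and after median centring all 8 of each.

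In the RefSeq gene order of rat chromosome 1, the 5 tested genes on either side of Plaur included 5 that rose and 3 that fell in the mean over times, among 37.5% higher and 20.1% lower of all tested genes. Kcnn4, a potassium channel gene of activated leukocytes, rose by 0.61 ± 0.066, with a median of 2.31 FPKM in silica lungs and 1.33 FPKM in air lungs, Cadm4, an adhesion molecule gene, by 0.58 and Ethe1, a mitochondrial enzyme gene, by 0.51. None had a difference as large as the 0.93 of Plaur. Of the 10 tested neighbours of Adam8, 3 rose and 4 fell, from Paox, a polyamine oxidase gene, at 0.36 to Inpp5a and the cilia gene Cfap46, both at -0.24. No RefSeq gene overlaps Plaur, and the lncRNA gene LOC134485200 overlaps Adam8. The library kit keeps strand, but whether the counting used it is not given in the sources used here, so reads of that lncRNA cannot be told from reads of Adam8.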

How the data were processed

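Total RNA of a piece of lung of 59 rats was made into libraries with a stranded kit after depletion of rRNA, per the labels' protocols. The submitters' processing notes name Cufflinks 2.1.1, TopHat2 2.0.9, Bowtie2 2.2.9, Trimmomatic 0.35 and bcl2fastq 2.19, with no role or order. The genome build is not given in the sources used here. As deposited by the authors, the values are FPKM, per the title of the deposited table, with 1 column per library; 0 columns were left unmatched. The table held 2888 entries, 1 of them incomplete and left out. No count model was applied to FPKM, and the depth is known only in relative terms, from 261 low entries whose values fall on steps (5.24-fold between libraries).

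Entries with 1 FPKM or more in 4 or more libraries entered limma 3.58.1 (R 4.3.3) as log2(FPKM + 0.5), all 12 groups in a single fit with an intensity trend (47 residual degrees of freedom, prior 3.41) without a covariate, since no batch is labelled. In each comparison p was adjusted over the 1278 tested genes (Benjamini-Hochberg, threshold 0.05), and the fit was tested on simulated data. Single values were also tested by exact permutation over the rats. Correlations were of deviations from group means, with 100000 permutations within groups. Likeness of profile was the root-mean-square difference between the 12 centred group means, with the 8 closest genes that have a symbol named per gene. From each list up to 4 genes with the smallest p could be named, and any with silica and air values apart at 3 or more times; the remaining named genes were chosen after their values were seen. Promoter stretches are RefSeq's for GRCr8; RefSeq gene positions served only for neighbour order and overlaps, and no coordinates were set against the FPKM, whose build is not named. Python 3.11.15 with scipy 1.17.1 and matplotlib 3.10.9 was used.

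Plaur, Adam8 and the gene lists were chosen with earlier results of these data known. Each library is a rat, per the labels, and p-values thus rest on the spread between animals, and no pair of libraries was identical (0 pairs). The alternatives tried were pseudocounts of 0.1 and 1, no filter and a filter at 5 FPKM, median centring, quantile normalization, rescaling of totals, other variance settings, fits of single times, leaving out each library and each month, and, chosen after seeing the data, Cyp2f4 as a covariate.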

Additional observations from a re-analysis of the deposited data

How the results depend on the processing

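No paired analysis was possible because no library number is shared between groups in the labels. Of the 185 alternative fits of the Plaur difference at 3 to 18 months and in the mean, 183 kept direction and call. The planned rescaling removed Hbb, the entry with the highest mean, and left LOC102553223, which took up to 25818 FPKM, in the totals. Under it Plaur at 3 months was 0.51 (limma adjusted p = 0.0656), and Adam8 -0.27 at 3 months, 0.0055 at 9 months and 0.37 in air at 18 against 1 month (0.516), with an F test over air at 0.416. Rescaling without LOC102553223, added after seeing the data, gave Adam8 -0.00062 at 3 months and 0.32 with age in air (0.108). Fitted from the groups of a time alone, Plaur was 0.42 at 1 month (0.0255) and 0.99 at 12 months (0.110).

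Leaving out each library in turn, Adam8 ranged from -0.039 to 0.076 at 6 months, -0.40 to -0.12 at 9 months, -0.16 to 0.034 at 18 months, 0.062 to 0.14 at 3 months, -0.17 to -0.056 at 12 months, -0.050 to -0.0035 in the mean and 0.32 to 0.51 with age in air, and Plaur with age in air from -0.018 to 0.20. The Plaur excess over 1 month ranged from 0.84 to 0.95 at 6, 0.59 to 0.79 at 9 and 0.45 to 0.85 at 12 months, and the adjusted p of its F test from 0.00900 to 0.316. Without month 12 it was 0.0132, with excesses of 0.90 at 6 months (0.00351) and 0.67 at 9 months (0.0136). The 6-month excess was 0.93 after median centring (0.0309) and 0.91 after quantile normalization (0.0338). Adam8 in air at 18 against 1 month was 0.33 under both (0.0592 and 0.0684), and its F test over air was 0.0531 without month 1. The mean Adam8 difference was 0.021 without month 9, and with Cyp2f4 as covariate it was 0.023, with 0.059 at 6 months and an excess of 0.025 at 3 over 1 month. Between Plaur and Adam8 r was -0.32 without the 12-month and -0.31 without the 18-month silica group, and -0.091 in air rats without the 18-month group. The cause of these changes was not tested.

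Counts of called genes moved by over 1.5 times under some settings. Leaving out 1 library gave 44 to 136 against 113 at 1 month, 112 to 214 against 196 at 18 months, 195 to 457 against 302 at 12 months and 10 to 78 against 17 for the F test over times. For the excess over 1 month it gave 2 to 8 against 2 at 3, 1 to 40 against 3 at 6, 16 to 114 against 51 at 9, 1 to 112 against 4 at 12 and 1 to 4 against 2 at 18 months. Other settings gave 4 to 132 at 1 month, 58 to 453 against 353 at 6 months, 1 to 355 at 12 months, 26 to 221 at 18 months, 400 to 847 against 736 in the mean, 12 to 312 against 279 with age in air, 89 to 435 against 369 for the F test over air 3 to 89 for that over times, and for the excess 2 to 10 at 3, 1 to 59 at 6, 4 to 140 at 9, 1 to 12 at 12 and 1 to 4 at 18 months. Depth differed 5.24-fold between libraries, and 4 or 5 rats per group limit what can be seen in Adam8.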

Other observations

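Motile cilia genes were looked at after Dnah3 was seen to vary with Adam8, from a list of 12 written then, so no test is given for the list. All 12 stood in the table and were tested, and Dnah3 itself is among them, so the counts are not of an independent list. In the mean of the 6 silica minus air differences 6 of the 12 fell and 0 rose, with a median of -0.13 on the log2 scale, among 20.1% lower and 37.5% higher of all tested genes (limma, adjusted over all of them). Vwa3a, a cilia-associated gene, had 4.40 FPKM in silica lungs and 5.40 FPKM in air lungs, a difference of -0.29 ± 0.067 (SE, adjusted p = 0.000253). Ccdc114, a docking factor of outer dynein arms, had 1.45 FPKM in silica lungs and 1.72 FPKM in air lungs, a difference of -0.21 ± 0.063 (adjusted p = 0.00425). Dnah3 had 2.88 FPKM in silica lungs and 3.26 FPKM in air lungs, a difference of -0.16 ± 0.058 (adjusted p = 0.0174). Cxcl17, the other airway marker in the table beside Cyp2f4, had medians of 59.8 FPKM in silica lungs and 38.4 FPKM in air lungs and rose by 0.65 ± 0.043 (adjusted p = 3.39e-18).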
